A study of Homo sapiens with 6 samples.

Results

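The replication-dependent histone genes are the clustered genes that supply most of the histone protein of dividing cells. They were taken by symbol from the deposited expression values, as the genes named H1-1 to H1-6 or named H2AC, H2BC, H3C or H4C with a number. This gave 53 of the 33496 genes in the files: 4 genes of the linker histone H1, 14 of H2A, 14 of H2B, 12 of H3 and 9 of H4. RNA-seq values of 6 libraries were used, all from ARPE-19, a human cell line established from retinal pigment epithelium (RPE). In the Era group, 3 libraries came from cells that received only erastin (5 μM, 24 h), an inhibitor of cystine import that induces ferroptosis, an iron-dependent form of cell death. In the Era+VK group, 3 libraries came from cells given vitamin K1 (VK1, 10 μM) for 1 h before the same erastin treatment. All 6 libraries carry the label wild type and all received erastin, and libraries of untreated cells were not analysed here. The number in the cell line label goes up by 1 with each sample although every title names ARPE-19, and the labels do not say whether the replicates were separate cultures, while the paper speaks of independent experiments without tying them to these libraries. If they were not separate, p-values measure only technical spread.

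Histones package DNA into nucleosomes. H2A, H2B, H3 and H4 form the core around which DNA is wrapped, and H1 binds the linker DNA where it enters and leaves the core. Most replication-dependent histone genes have no introns, are transcribed in S phase under control of the nuclear factor NPAT, and make mRNAs that end after a conserved stem-loop instead of a poly(A) tail. The stem-loop binding protein SLBP holds this structure during processing and translation, and the mRNAs are degraded when DNA synthesis stops. Some members, of which H1-2, H2AC6, H2BC4, H2BC5, H2BC12 and H2BC21 were taken here from background knowledge, also make polyadenylated mRNA from a site downstream of the stem-loop.

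The stem-loop is shown because it is the element that sets how these mRNAs end, and because it could be read for 8 of the 10 members with a level high enough to test. Annotated transcripts (GENCODE 29, GRCh38) were found for 53 of 53 members through 72 transcript identifiers. A match to the histone stem-loop consensus was present in 36 of these 72 transcripts, against 73 of 83129 protein-coding transcripts (0.0878%). The 36 transcripts belong to 26 of the 53 members. Of the 27 members without a match, 22 have no transcript model of 450 bases or more, so that the model covers little beyond the coding sequence. H1-2 and H2BC12, which had the highest levels of their types, are among the 27. Their only models have 642 and 381 bases, and a model without a match does not show that the mRNA lacks a stem-loop. The sequences below read 5′ to 3′ on the mRNA strand, with the arms of the stem in capitals and the loop and 5 flanking bases on each side in lower case.
H2AC6: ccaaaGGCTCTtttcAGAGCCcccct
H2AC18 and H2AC19: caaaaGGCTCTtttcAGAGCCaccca
H2BC5: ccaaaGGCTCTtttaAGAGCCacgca
H2BC21: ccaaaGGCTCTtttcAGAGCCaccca
H3C6: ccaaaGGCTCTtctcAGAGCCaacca
H4C14 and H4C15: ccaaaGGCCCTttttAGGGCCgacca

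The stem-loop took 6 different forms over the 26 members. The form of H2AC6, H2AC18, H2AC19 and H2BC21 was the commonest and was shared by 15 members, the form of H2BC5 by 3, and that of H4C14 and H4C15 by 3, while H3C6 was alone in its form. In 19 members at least 1 annotated transcript runs on for 100 bases or more past the stem-loop. Of the 10 members that reached a mean of 1 FPKM, 5 are among these 19 (H2AC6, H4C14, H4C15, H3C6 and H2BC21). In H2AC6 the longest such transcript runs 1128 bases past the stem-loop and carries AATAAA, the polyadenylation signal, within its last 50 bases. The longest such transcripts of H4C14, H4C15, H3C6 and H2BC21 carry it there as well. So do the transcripts of H2AC18 and H2AC19, which end 35 bases past the stem-loop. The share of all transcripts with these letters was not counted. H2BC5 has 1 transcript that ends 39 bases past the stem-loop and another of 789 bases that holds no stem-loop.

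Expression is given in FPKM (fragments per kilobase of transcript, scaled to all mapped fragments of a library), a unit that allows levels of different genes to be set side by side. The files hold no read counts used here, so depth is unknown and no counting error can be given. Between 24143 and 24601 genes per library were above 0. Era+VK replicates 2 and 3 stood apart from the other 4 libraries by RNA of the erythroid lineage. Over 18 erythroid markers, the summed level was 0.31 to 0.63 FPKM in the 3 Era libraries and 0.4 in Era+VK replicate 1, against 241.3 and 234.1 in Era+VK replicates 2 and 3. Of these 18 markers, 15 were higher in both of those libraries than in the other 4, and 10 were at 0 in all of the other 4. GATA1, the erythroid transcription factor, was at 2.35 and 2.27 FPKM there and at 0 in the others. Of 14 RPE markers, 13 were in the files and 6 were tested, of which 0 had a limma adjusted p under 0.05. In limma, 2 were higher at an unadjusted p under 0.05, beside 10.4% of all genes tested. RPE65, the isomerase of the visual cycle, reached at most 0.02 FPKM and the pigment gene DCT at most 0.01 FPKM. In contrast, MITF lay between 15.49 and 18.59 FPKM and OTX2 between 27.5 and 31.35 FPKM. The RPE marker BEST1 was uneven within both groups, at 2.65, 0.65 and 56.98 FPKM in Era and at 36.45, 0.6 and 4.8 FPKM in Era+VK. Its high values thus did not follow the libraries with erythroid RNA. The 2 libraries with erythroid RNA make up most of the Era+VK group. The log2 fold change of each tested member is therefore also given for Era+VK replicate 1 alone against the 3 Era libraries. In that fit the spread comes from the Era libraries only, and the lone library is assumed to vary like them.

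The question asked of the data was whether VK1 pretreatment went along with a different level of histone mRNA in erastin-treated cells. Summed over the 53 genes, histone RNA was at 67.58, 64.58 and 68.51 FPKM in Era and at 73.48, 124.66 and 120.05 FPKM in Era+VK. The group means were 66.9 ± 2.05 (SD, n = 3) and 106.1 ± 28.3 (SD, n = 3). Era+VK replicate 1 was thus 1.10 times the Era mean, and the excess lay for the most part in replicates 2 and 3. These sums were 0.0275% to 0.0291% of all FPKM in the Era libraries, 0.0322% in Era+VK replicate 1 and 0.0524% and 0.0525% in replicates 2 and 3. In bulk RNA, a different share of cells making histone mRNA and a different amount of it per cell cannot be told apart.

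**Figure D1:**
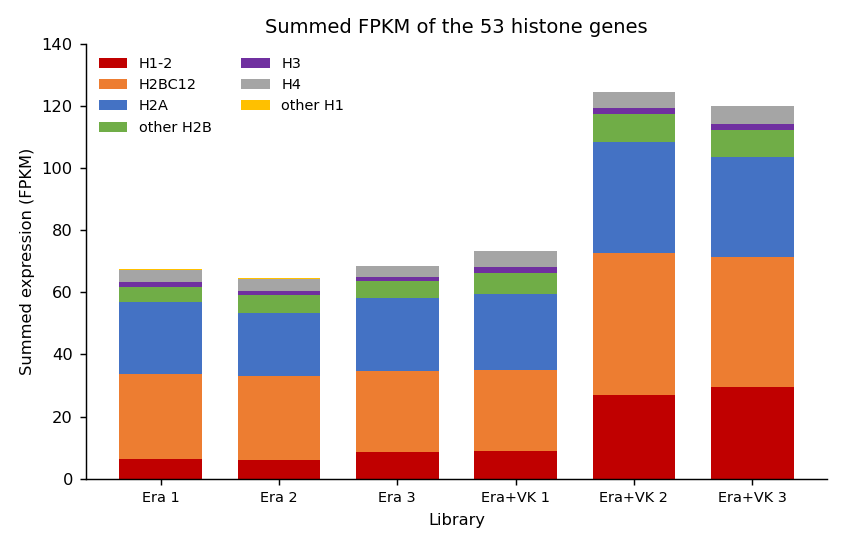
Summed expression of the 53 histone genes in each library, in FPKM, stacked by histone type with H1-2 and H2BC12 drawn separately. The bars of Era+VK replicates 2 and 3 reach 124.66 and 120.05 FPKM, and the other 4 lie between 64.58 and 73.48 FPKM.

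A handful of genes carried this RNA. H1-2 and H2BC12 alone held 49.9%, 51.0% and 50.5% of the summed histone FPKM in Era, 47.5% in Era+VK replicate 1, and 58.2% and 59.4% in Era+VK replicates 2 and 3. Without these 2 genes the sum was 33.87, 31.62 and 33.88 FPKM in Era and 38.58, 52.08 and 48.69 FPKM in Era+VK, so the order of the libraries stayed. Of the 53 members, 10 reached a mean of 1 FPKM over the 6 libraries and were tested, 39 were below it, and 4 (H1-5, H2AC4, H2BC14 and H3C7) were listed at 0 in every library. The lowest tested mean was 1.01 FPKM (H2BC21) and the highest untested mean 0.915 FPKM (H2BC4). H2BC21 and H3C6 passed the minimum with Era means of 0.95 and 0.967 FPKM, that is, through their Era+VK values. The 53 genes lie in clusters on chromosome 6 (43 genes) and chromosome 1 (10 genes), and each chromosome held 5 of the 10 tested genes.

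No single histone gene passed the test over all genes. In limma on log2(FPKM + 1), 0 of the 10 tested members had an adjusted p under 0.05, against 0.618% of all 11981 genes tested in either direction and 0.134% in the higher direction. At an unadjusted p under 0.05, 7 of the 10 members were higher in Era+VK, against 10.4% of all genes, and 0 were lower, against 5.42%. The 10 include near-identical copies (H2AC18 with H2AC19, H4C14 with H4C15), so counts of tested members do not rest on 10 independent measurements. The fitted difference was above 0 in 10 of 10 members, against 63.3% of all genes. Without H2BC21 and H3C6, it was above 0 in 8 of the 8 members with an Era mean of at least 1 FPKM, against 62.8% of such genes. For Era+VK replicate 1 alone it was above 0 in 8 of 10, against 57.4% of all genes. The 8 include H2BC21 and H3C6, which passed the minimum through their Era+VK values, and H2AC19 at only 0.008. In 5 members (H1-2, H2AC6, H2BC5, H4C14 and H4C15) the lowest Era+VK library lay above the highest Era library, which held for 15.1% of all genes, and in 0 members the groups were separate in the other direction (7.04% of all genes). The median log2 fold change of the 10 members was 0.33, beside 0.03 over all genes tested. Against the Era mean, the median member differed by 0.21, 0.52 and 0.33 on the log2 scale in Era+VK replicates 1, 2 and 3, where the median of all genes differed by 0.03, 0.03 and 0.04. Fold changes on this scale understate the change of genes near or below 1 FPKM.

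Across the Era+VK libraries the members showed 2 patterns, which overlap. In 6 of the 10 tested members, Era+VK replicates 2 and 3 were both above the other 4 libraries, which was the case for 11.4% of all genes (H1-2, H2BC12, H2AC18, H2AC19, H2AC6 and H2BC5). Era+VK replicate 1 was above every Era library in 7 of the 10, against 38.1% of all genes, and these were H1-2, H2AC6, H2BC5, H4C14, H4C15, H3C6 and H2BC21. Without the last 2, which passed the minimum through their Era+VK values, the count was 5 of 8, against 37.8% of genes with an Era mean of at least 1 FPKM. H2BC12 alone had Era+VK replicate 1 below every Era library. The patterns are described by histone type below, together with the values of each library.

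**Figure D2:**
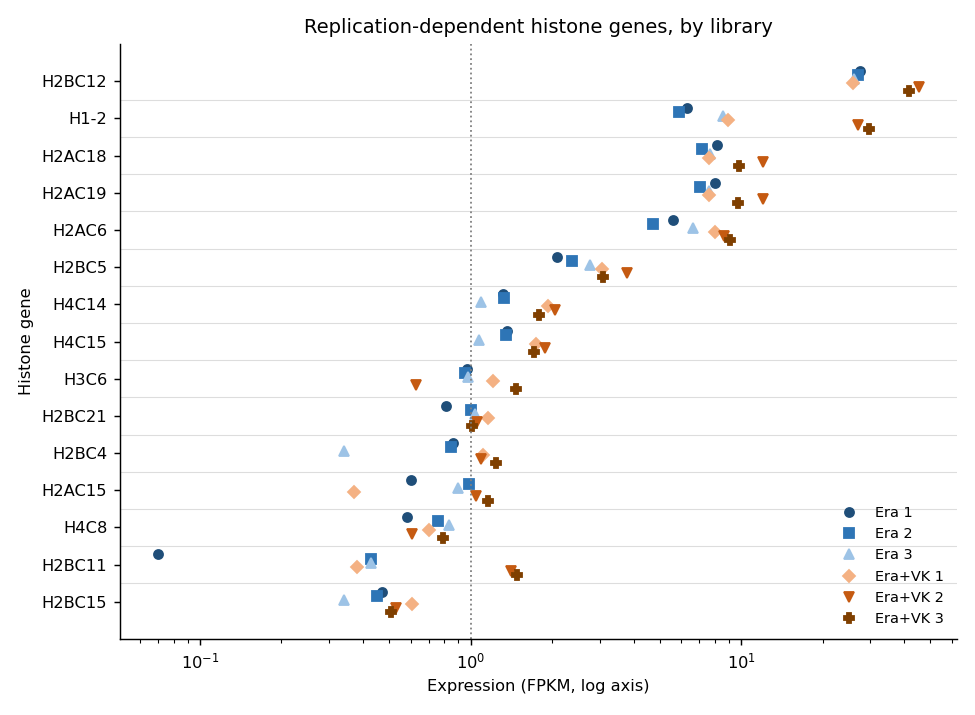
Expression in FPKM (log axis) of the 15 histone genes with the highest mean, 1 symbol for each of the 6 libraries, with the minimum for testing as a dotted line. For H1-2, H2BC12 and H2BC11 the symbols of Era+VK replicates 2 and 3 lie to the right of the other 4, while for H4C14 and H4C15 all 3 Era+VK libraries lie together above Era.

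Linker histone H1 was represented by a single gene. H1-2 (chr6:26055787-26056428, GRCh38, minus strand, 1 exon) was at 6.28, 5.89 and 8.56 FPKM in Era and at 8.96, 27.06 and 29.54 FPKM in Era+VK. Era+VK replicate 1 lay just above the highest Era library, and replicates 2 and 3 were far above both. The means were 6.91 ± 1.44 and 21.9 ± 11.2 FPKM (SD, n = 3 each), and the log2 fold change was 1.39 (SE 0.39, limma adjusted p = 0.169). Replicates 2 and 3 averaged 28.3 FPKM, 4.10 times the Era mean, and replicate 1 was 1.30 times that mean (log2 fold change 0.35). Left with only Era+VK replicates 2 and 3, the test gave H1-2 a log2 fold change of 1.90 with a limma adjusted p of 0.00151, where 0.25% of all genes were called higher, and over all alternatives its adjusted p ran from 0.00151 to 0.427. These are the 2 libraries with erythroid RNA, whose part in the level of H1-2 was not tested. The other H1 genes were barely detected: H1-4 lay between 0.03 and 0.23 FPKM, H1-3 was above 0 in 1 library (0.07 FPKM), and H1-5 was at 0.

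H2B was the type with the highest summed level, and most of it was H2BC12. The type summed to 32.27, 32.77 and 31.32 FPKM in Era and to 32.69, 54.34 and 50.38 FPKM in Era+VK. H2BC12 (chr6:27146418-27146798, minus strand, 1 exon) was at 27.43, 27.07 and 26.07 FPKM in Era and at 25.94, 45.52 and 41.82 FPKM in Era+VK. The Era libraries and Era+VK replicate 1 lay within 2 FPKM of each other, and replicates 2 and 3 averaged 1.63 times the Era mean. The log2 fold change was 0.44 (SE 0.18, limma adjusted p = 0.302), and it was −0.05 for replicate 1 alone. Without Era+VK replicate 1 it was 0.68 with a limma adjusted p of 0.00389, within a range of 0.00389 to 0.698 over all alternatives. The part of the erythroid RNA in this difference was not tested either. Of the 31-base words in the H2BC12 transcript, 49.6% also occur in transcripts of other members, and how fragments from such shared stretches were assigned is not given in the sources used here.

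The remaining H2B genes with a level to describe were an order of magnitude lower. H2BC5 (chr6:26158146-26171349, plus strand) was at 2.09, 2.37 and 2.76 FPKM in Era and at 3.05, 3.78 and 3.09 FPKM in Era+VK. All 3 Era+VK libraries were above the 3 Era libraries, with a log2 fold change of 0.34 (SE 0.10, limma adjusted p = 0.168) and 0.25 for replicate 1 alone. H2BC21 (chr1:149884459-149886652, minus strand) was at 0.81, 1.0 and 1.04 FPKM in Era and at 1.16, 1.06 and 1.01 FPKM in Era+VK, so that the groups overlapped (log2 fold change 0.09, SE 0.08, limma adjusted p = 0.608, and 0.15 for replicate 1 alone). H2BC4, just under the minimum, was at 0.86, 0.85 and 0.34 FPKM in Era and at 1.11, 1.09 and 1.24 FPKM in Era+VK, without overlap. H2BC11 followed H2BC12 in its pattern, at 0.07, 0.43 and 0.43 FPKM in Era, 0.38 in Era+VK replicate 1, and 1.41 and 1.48 in replicates 2 and 3.

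H2A showed both patterns within 1 type. Its sum was 23.31, 20.39 and 23.65 FPKM in Era and 24.68, 35.95 and 32.31 FPKM in Era+VK. H2AC18 (chr1:149842188-149842736, minus strand) was at 8.14, 7.16 and 7.65 FPKM in Era and at 7.58, 12.06 and 9.82 FPKM in Era+VK. H2AC19 (chr1:149851061-149851624, plus strand) was at 7.98, 7.07 and 7.61 FPKM in Era and at 7.59, 12 and 9.72 FPKM in Era+VK. Era+VK replicate 1 lay among the Era libraries in both genes and replicates 2 and 3 above them. The log2 fold changes were 0.30 (SE 0.14, limma adjusted p = 0.337) for H2AC18 and 0.31 (SE 0.13, limma adjusted p = 0.317) for H2AC19, and −0.01 and 0.008 for replicate 1 alone. The 2 genes are near-identical copies: of the 31-base words of H2AC18, 100% occur in H2AC19, and their stem-loops with flanks are the same, so their levels are not 2 independent measurements.

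H2AC6 (chr6:26124145-26139116, plus strand) showed another pattern than these copies, with all 3 Era+VK libraries above Era at a like level. It was at 5.6, 4.72 and 6.63 FPKM in Era and at 8.0, 8.67 and 9.07 FPKM in Era+VK. The means were 5.65 ± 0.956 and 8.58 ± 0.541 FPKM (SD, n = 3 each), with a ratio of 1.52 and a log2 fold change of 0.54 (SE 0.10, limma adjusted p = 0.072). Replicate 1 alone gave 0.45. Only 1.8% of its 31-base words occur in other members. With a minimum of 1 FPKM in every library in place of the mean, H2AC6 and H4C14 had limma adjusted p-values of 0.0494 and 0.0434, where 0.293% of all genes were called higher. Over all alternatives these ran from 0.0494 to 0.279 for H2AC6 and from 0.0434 to 0.243 for H4C14 (limma adjusted p). H2AC15, the next in level, was at 0.6, 0.99 and 0.9 FPKM in Era and at 0.37, 1.05 and 1.16 FPKM in Era+VK, with Era+VK replicate 1 the lowest of the 6 libraries.

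Of the 5 types, H4 had the smallest spread between the 3 Era+VK libraries relative to its mean. Its sum was 3.99, 3.98 and 3.51 FPKM in Era and 5.21, 5.33 and 5.58 FPKM in Era+VK, with means of 3.83 ± 0.274 and 5.37 ± 0.189 FPKM (SD, n = 3 each). Replicate 1 was 1.36 times the Era mean and the group 1.40 times. H4C14 (chr1:149832659-149839767, plus strand) was at 1.32, 1.33 and 1.09 FPKM in Era and at 1.94, 2.05 and 1.79 FPKM in Era+VK. The log2 fold change was 0.38 (SE 0.07, limma adjusted p = 0.076), and 0.39 for replicate 1 alone. H4C15 (chr1:149854045-149861210, minus strand) was at 1.36, 1.35 and 1.07 FPKM in Era and at 1.75, 1.88 and 1.72 FPKM in Era+VK (log2 fold change 0.30, SE 0.08, limma adjusted p = 0.14), and replicate 1 alone gave 0.29. The groups were separate in both genes, at about the same level in the libraries with and without erythroid RNA. H4C14 and H4C15 are again near-identical, with 98.6% and 97.2% of their 31-base words in common with each other, and share the stem-loop shown above. H4C8 did not follow them, at 0.58, 0.76 and 0.83 FPKM in Era and 0.7, 0.61 and 0.79 FPKM in Era+VK, and H4C5 lay between 0.09 and 0.56 FPKM with the groups overlapping.

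H3 contributed little RNA, with sums of 1.5, 1.36 and 1.41 FPKM in Era and 1.79, 1.88 and 2.11 FPKM in Era+VK. H3C6 (chr6:26224199-26227473, plus strand) made up most of it in every library but Era+VK replicate 2. It was at 0.97, 0.95 and 0.98 FPKM in Era and at 1.21, 0.63 and 1.47 FPKM in Era+VK. The Era+VK libraries lay on both sides of the Era libraries, and the log2 fold change of 0.08 (SE 0.14, limma adjusted p = 0.84) turned to −0.05 without Era+VK replicate 3 and was 0.17 for replicate 1 alone. The copies H3C14 and H3C15 were at 0 to 0.05 FPKM in Era and at 0.13 to 0.22 FPKM in Era+VK, without overlap but far under the minimum. H3C10 was at 0.07, 0.04 and 0.11 FPKM in Era and at 0.09, 0.29 and 0.26 FPKM in Era+VK.

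**Figure D3:**
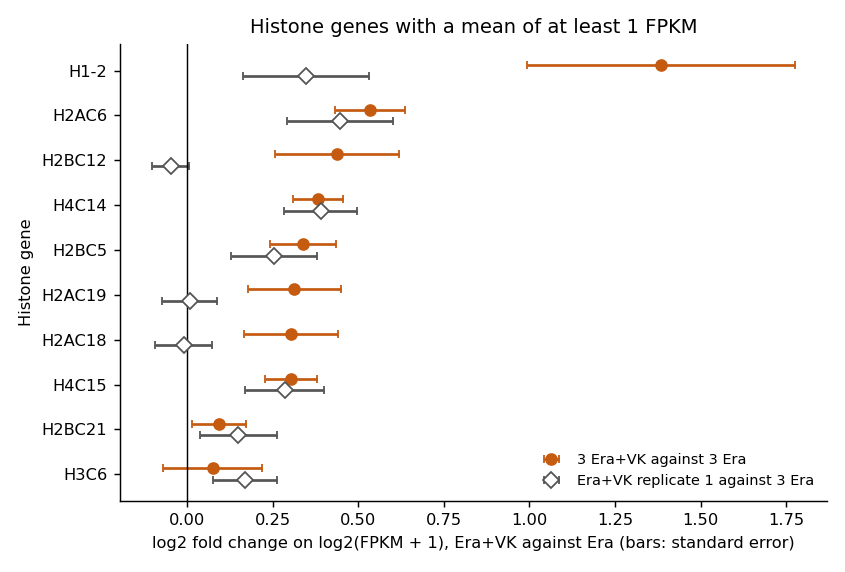
Log2 fold change of Era+VK against Era on log2(FPKM + 1) for the 10 tested histone genes, with bars of 1 standard error, for all 3 Era+VK libraries (filled) and for Era+VK replicate 1 alone (open). The 2 estimates of H2AC6, H4C14, H4C15 and H2BC5 lie close together, whereas H1-2 goes from 1.39 to 0.35 and H2BC12 from 0.44 to −0.05.

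The median log2 fold change by type was 1.39 for H1 (1 tested gene), 0.31 for H2A (3), 0.34 for H2B (3), 0.08 for H3 (1) and 0.34 for H4 (2). Split by the list of polyadenylated-type members, its 6 genes (5 tested) had a median of 0.44 and the other 47 (5 tested) a median of 0.30. The list is background knowledge and does not follow the annotated ends: H4C14, H4C15 and H3C6, outside it, have transcripts that run 1167, 1314 and 1862 bases past the stem-loop. The polyadenylated-type members summed to 43.07, 41.9 and 45.4 FPKM in Era and to 48.22, 87.18 and 85.77 FPKM in Era+VK. The other 47 summed to 24.51, 22.68 and 23.11 FPKM in Era and to 25.26, 37.48 and 34.28 FPKM in Era+VK. Both classes thus had replicate 1 close to Era and replicates 2 and 3 above it. The ratios of group means were 1.70 for the polyadenylated-type members and 1.38 for the others. Much of the 1.70 came from H1-2, whose mean rose from 6.91 to 21.9 FPKM, beside 43.5 to 73.7 FPKM for its class. The ratio of H1-2 was 3.16 and that of H2BC12 1.41. Those of the rest of the class lay between 1.13 (H2BC21) and 1.68 (H2BC4). The difference between the classes was not tested. How RNA was selected for the libraries is not given in the sources used here, and RNAs without a poly(A) tail were low: RN7SK, a small nuclear RNA made by RNA polymerase III, was at 0.08 to 0.61 FPKM, and 15 such genes summed to 4.44 to 10.24 FPKM in a library. RN7SK was higher in Era+VK without overlap, at 0.27, 0.12 and 0.08 FPKM against 0.61, 0.44 and 0.45 FPKM, while the 3 of these genes that were tested had fitted differences below 0. The part of RNA selection in the histone values was not tested.

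Among the 39 untested members above 0, the mean was higher in Era+VK in 24 and lower in 15, against 49.5% higher among all 19344 genes with a mean above 0 and under 1 FPKM. The groups did not overlap in 6 of the 39 (H2BC4, H2BC15, H4C12, H2AC20, H3C14 and H3C15), each higher in Era+VK, against 3.42% of those genes. H3C14 and H3C15 share 100% of their 31-base words and are not independent measurements. Of the 31-base words of H4C12, 100% occur in H4C11, whose groups overlapped. Of those of H2AC20, 40.0% occur in H2AC19, which was at a far higher level. Among these 6, H2AC20 and H2BC15 had their highest level in Era+VK replicate 1, H2AC20 at 0.74 FPKM beside 0.2 and 0.21 in replicates 2 and 3 and at most 0.11 in Era, and H2BC15 at 0.61 FPKM beside 0.53 and 0.51 and at most 0.47 in Era. Replicates 2 and 3 were both above the other 4 libraries in 8 of the 39, against 5.69% of those genes (H2BC11, H2BC8, H2AC8, H2AC15, H4C12, H3C10, H2AC13 and H2AC7). H2AC8 was at 0.2, 0 and 0.22 FPKM in Era, 0.19 in Era+VK replicate 1, and 0.57 and 0.99 in replicates 2 and 3. H2BC8, its neighbour on the opposite strand, was at 0.37, 0.28 and 0.03 FPKM in Era, 0.33 in replicate 1, and 0.53 and 0.67 in replicates 2 and 3. Replicate 1 was above every Era library in 8 of the 39, against 22.3% of those genes. At these levels a value can rest on few fragments, and no test was made.

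Neighbouring members were at like levels in some places and at unlike levels in others. In 9 pairs, members on opposite strands start within 1000 bases and run away from each other, and each pair joins an H2A with an H2B gene. The outermost annotated start of each gene was used. H2AC15 and H2BC15, which overlap by these ends, are not among the 9. H2BC12 and H2AC12 start 331 bases apart, with means of 32.3 and 0.0367 FPKM over the 6 libraries. H2BC4 and H2AC6 start 219 bases apart, with means of 0.915 and 7.12 FPKM, and both had groups without overlap. H2BC11 and H2AC11 start 292 bases apart and had means of 0.7 and 0.343 FPKM, and H2BC21 and H2AC20 (323 bases) means of 1.01 and 0.227 FPKM. H2BC8 and H2AC8 (283 bases) were near equal, at 0.368 and 0.362 FPKM, as were H2AC7 and H2BC7 (277 bases), at 0.103 and 0.1 FPKM. In the remaining 3 pairs both genes had a mean under 0.2 FPKM.

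H1-2, H2BC12 and H2AC6 had Era+VK replicates 2 and 3 above the other 4 libraries. H1-2, H2AC6 and H4C14 were higher than Era in all 3 Era+VK libraries, so the 2 patterns overlap. Promoters of these genes are shown so that the letters before their starts can be compared. They are the 150 bases before the annotated start (RefSeq, GRCh38.p14), written 5′ to 3′ on the strand of the gene, with matches to the motifs named here in capitals.
H1-2, chr6:26056471-26056620, minus strand: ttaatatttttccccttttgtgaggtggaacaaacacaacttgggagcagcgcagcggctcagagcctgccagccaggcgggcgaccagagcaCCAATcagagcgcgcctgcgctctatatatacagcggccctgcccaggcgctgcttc
H2BC12, chr6:27146859-27147008, minus strand: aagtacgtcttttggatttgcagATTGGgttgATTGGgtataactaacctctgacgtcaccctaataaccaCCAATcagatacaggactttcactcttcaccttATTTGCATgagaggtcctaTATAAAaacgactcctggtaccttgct
H2AC6, chr6:26124022-26124171, plus strand: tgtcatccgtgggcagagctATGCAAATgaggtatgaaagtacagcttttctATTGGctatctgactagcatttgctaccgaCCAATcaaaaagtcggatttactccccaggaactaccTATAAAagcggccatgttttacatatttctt
H4C14, chr1:149832507-149832656, plus strand: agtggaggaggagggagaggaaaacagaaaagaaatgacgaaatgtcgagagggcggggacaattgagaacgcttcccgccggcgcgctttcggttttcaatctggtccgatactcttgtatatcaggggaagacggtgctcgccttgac

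A promoter entry was found for 49 of the 53 members and for 27305 genes in all, and each was searched on both strands. The octamer ATTTGCAT, known from H2B promoters as a binding site of OCT1, was present in 16 of 49 members (32.7%) and in 0.985% of all promoters. TATAAA, 1 form of the TATA box, was present in 27 of 49 (55.1%) against 7.05%, and CCAAT in 42 of 49 (85.7%) against 24.4%. Only these exact letters were searched, and other TATA-like stretches, such as tatatata in the H1-2 window, were not counted. Among the 10 tested members, 3 held the octamer, 6 TATAAA and 8 CCAAT. H2BC12 and H2AC6 each held all 3 motifs, although only H2AC6 had Era+VK replicate 1 above Era, H1-2 held CCAAT alone, and the window of H4C14 held none of these letters. A match is a description of the sequence and not a measured site.

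The genes that make and process histone mRNA were measured beside the members. Of 18 genes for transcription and 3′ processing of histone mRNA, 0 had a limma adjusted p under 0.05, and the median log2 fold change was 0.02. At an unadjusted p under 0.05 in limma, 2 were higher (HINFP and CCNE1), which is near the share of 10.4% over all genes. SLBP was at 49.69, 51.29 and 47.92 FPKM in Era and at 46.88, 53.82 and 49.74 FPKM in Era+VK (log2 fold change 0.01, SE 0.06, limma adjusted p = 0.939), and this sign turned under 4 of the alternatives tried. NPAT, which gathers at the histone clusters and drives their transcription, was at 4.29 ± 0.322 and 4.70 ± 0.237 FPKM (SD, n = 3 each, log2 fold change 0.11, limma adjusted p = 0.448). CASP8AP2, a partner of NPAT in the histone locus body, had a log2 fold change of 0.07 (limma adjusted p = 0.745). CCNE1, the cyclin E1 that with CDK2 activates NPAT, was at 5.80 and 7.06 FPKM in the means (log2 fold change 0.25, limma adjusted p = 0.229).

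Genes of histone mRNA decay gave 0 of 7 at an adjusted p under 0.05 and 0 at an unadjusted p under 0.05 in limma, with a median log2 fold change of 0.06. ERI1, the exonuclease that trims the stem-loop end, was at 5.46 and 5.58 FPKM in the means, and UPF1, the helicase needed for the decay, at 18.4 and 19.2 FPKM (limma adjusted p = 0.821 and 0.609).

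Variant histones, which replace the replication-dependent ones outside S phase, were tested in 9 of 10 genes, with a median log2 fold change of 0.08. None had a limma adjusted p under 0.05. At an unadjusted p under 0.05 in limma, 3 were higher (H2AX, H2AZ2 and H2AJ), beside 10.4% of all genes. H2AX, the variant that is phosphorylated at DNA breaks and whose mRNA can end in a stem-loop as well as in a poly(A) tail, was at 47.82, 47.11 and 48.54 FPKM in Era and at 52.49, 52.95 and 57.41 FPKM in Era+VK. The groups did not overlap (log2 fold change 0.18, SE 0.05, limma adjusted p = 0.151). H3-3A and H3-3B, the genes of H3.3, were at 38.9 and 38.9 FPKM and at 58.7 and 62.4 FPKM in Era and Era+VK, with log2 fold changes of −0.004 and 0.08. H2AZ1 was at 113.2 and 104.2 FPKM (log2 fold change −0.12, limma adjusted p = 0.446). By level in these libraries, H3-3A and H3-3B exceeded every H3 member, and H2AZ1 and H2AX exceeded every H2A member. How RNA was selected is not known, so mRNAs without a poly(A) tail may be under-represented. Whether this ranking holds for the mRNA in the cells was not tested.

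Histone chaperones, DNA replication genes and mitotic genes were examined because histone mRNA follows the cell cycle. Of 18 chaperone genes, 0 had a limma adjusted p under 0.05. At an unadjusted p under 0.05 in limma, 2 were lower, beside 5.42% of all genes. These were NAP1L1 (53.3 and 47.9 FPKM in the means) and IPO4 (9.58 and 7.01 FPKM), an importin that carries histones into the nucleus. NASP, the chaperone that keeps a store of H3 and H4, was at 17.6 and 17.6 FPKM. Of 31 DNA replication genes, 15 had a fitted difference above 0 and 16 below, where 63.3% of all genes were above 0. The median was −0.007, beside 0.03 over all genes tested. In limma, 0 had an adjusted p under 0.05, and 1 was lower at an unadjusted p under 0.05 (MCM5), beside 5.42% of all genes. PCNA, the sliding clamp of replication, was at 177.7 and 177.6 FPKM. Against the Era mean, the median replication gene differed by −0.15 in Era+VK replicate 1 and by 0.09 and 0.04 in replicates 2 and 3, so that replicate 1 was the lowest of the 6 libraries.

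Of 22 mitotic genes, 22 had a fitted difference above 0, beside 63.3% of all genes, with a median of 0.10. In limma, 0 had an adjusted p under 0.05 and 6 were higher at an unadjusted p under 0.05, beside 10.4% of all genes. TOP2A, the topoisomerase of replicating and mitotic chromosomes, was at 25.04, 25.38 and 26.04 FPKM in Era and at 30.13, 29.26 and 30.91 FPKM in Era+VK (log2 fold change 0.23, SE 0.04, limma adjusted p = 0.063), and MKI67, the proliferation marker Ki-67, was at 17.2 and 19.5 FPKM in the means (limma adjusted p = 0.345). The median mitotic gene differed from the Era mean by 0.03, 0.17 and 0.14 in Era+VK replicates 1, 2 and 3. Mitotic genes thus had their highest medians over the 6 libraries in the same 2 libraries as the histone members. The median of the replication genes was highest in Era+VK replicate 2. In Era+VK replicate 3 (0.042) it was nearly level with Era replicate 2 (0.040). The part of cell cycle state in the histone values was not tested.

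**Figure D4:**
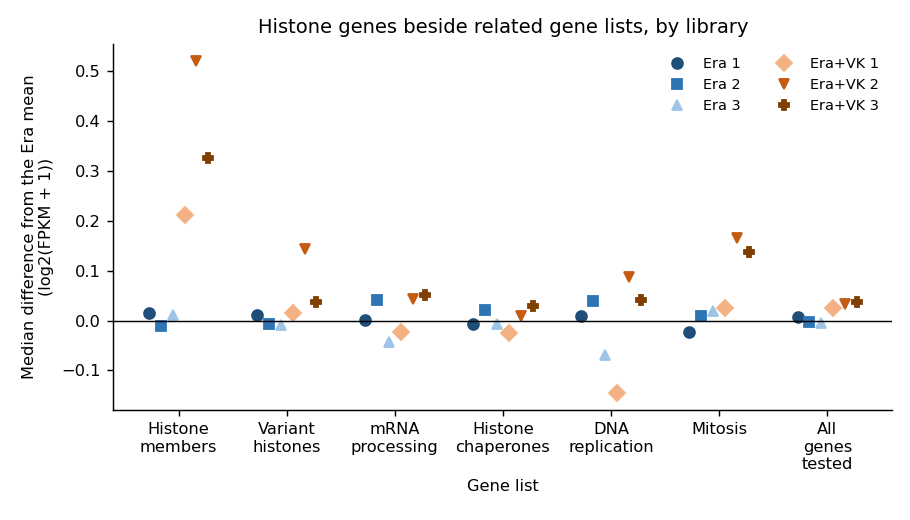
Median difference of each library from the Era mean, on log2(FPKM + 1), for the tested histone members, the related gene lists and all genes tested. The histone members lie at 0.21, 0.52 and 0.33 in Era+VK replicates 1, 2 and 3, above every other list plotted, and DNA replication genes are lowest in Era+VK replicate 1, at −0.15.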

How the data were processed

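RNA was sequenced as paired-end libraries on an Illumina NovaSeq instrument. The authors deposited FPKM values per gene for each of the 6 libraries; the submitters' processing notes name cutadapt, HISAT2 and StringTie 2.1.6, while the annotation, strand setting and RNA selection are not given in the sources used here. The notes name a mouse build, whereas the genes carry human Ensembl identifiers, so no coordinate was taken from them.

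Groups were taken from the labels, doses and times from the paper. Genes averaging 1 FPKM or more over the deposited FPKM of the 6 libraries were kept (11981), and limma 3.58.1 (R 4.3.3) was fitted to log2(FPKM + 1), with empirical Bayes with a trend, two-sided, Era+VK against Era without covariates, Benjamini-Hochberg adjustment over all genes tested, threshold 0.05. The fit was tested on simulated data. Count models were not used, since FPKM are not counts. FPKM are relative to all fragments of a library, so abundant genes move the others.

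The histone members and all gene lists were chosen with earlier results of these data known. Named in full were the 4 members of each type with the highest mean, the polyadenylated-type members, members past the threshold, the 3 largest rises and falls, and fixed pathway genes; other members were named after their values were seen. HINFP, CCNE1, H2AZ2, H2AJ, NAP1L1, IPO4, MCM5, TOP2A and RN7SK were also named after their values were seen. A single pathway gene was left out of its list and is not reported here. Alternatives were a pseudocount of 0.1, other filters, quantile normalization, rescaling without mitochondrially encoded genes, removal of GC and length trends, a replicate block, and left-out libraries. Counts over members with an Era mean of at least 1 FPKM were added after the data were seen. Transcripts are from GENCODE 29 (GRCh38), promoters from RefSeq (GRCh38.p14).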

Additional observations from a re-analysis of the deposited data

How the results depend on the processing

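The number of genes called over all genes tested was 74, and it was 1 without a filter, 122 with at least 1 FPKM in every library, 112 after quantile normalization, 171 after removal of GC and length trends, 35 without Era+VK replicates 2 and 3, and 2 to 70 with 1 library left out (2 without Era replicate 1 or 2, 5 without Era replicate 3, 42 without Era+VK replicate 3). Histone members called were 0, except for 2 with at least 1 FPKM in every library (H2AC6 and H4C14, of 8 members tested) and 2 without Era+VK replicate 1 (H1-2 and H2BC12), so the range with 1 library left out was 0 to 2. Members with a fitted difference above 0 were 9 or 10 of 10 with 1 library left out and 34 of 49 without a filter.

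The replicate numbers did not pair the samples, with correlations of same-numbered deviations of 0.0709, 0.103 and 0.021. With the replicate block 42 genes were called, and 0 histone members.

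The median log2 fold change of the members was 0.33, and it was 0.45 with a pseudocount of 0.1, 0.092 without a filter, 0.21 without Era+VK replicates 2 and 3, and 0.27 to 0.42 with 1 library left out. Without Era+VK replicates 2 and 3 it was 0.35 for H1, 0.0076 for H2A, 0.15 for H2B, 0.25 for polyadenylated-type members and 0.17 for the others. Without a filter it was 0.033 for H1, 0.13 for H2B, 0.072 for H4 and 0.072 for members not of the polyadenylated type. H4 was at 0.53 with a pseudocount of 0.1. With 1 library left out the ranges were 1.10 to 1.90 for H1, 0.17 to 0.47 for H2A, 0.26 to 0.41 for H2B, −0.051 to 0.25 for H3, 0.29 to 0.37 for H4, 0.29 to 0.58 for polyadenylated-type members and 0.25 to 0.38 for the others.

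The sign turned in 26 values of single genes, while 274 kept direction and side of the threshold and 4 passed the threshold. Without Era+VK replicates 2 and 3 the log2 fold change was −0.048 for H2BC12, −0.010 for H2AC18, −0.080 for SLBP, −0.017 for CASP8AP2, −0.0020 for ERI1, −0.0097 for H3-3B and −0.034 for NASP. With 1 library left out it ranged from −0.051 to 0.25 for H3C6, −0.038 to 0.059 for SLBP, −0.0035 to 0.15 for CASP8AP2, −0.078 to 0.034 for H3-3A, −0.017 to 0.039 for NASP and −0.078 to 0.081 for PCNA. Quantile normalization gave −0.010 for ERI1, −0.024 for NASP and 0.044 for PCNA, and removal of GC and length trends gave −0.013 for SLBP, −0.0066 for ERI1 and −0.023 for NASP. The cause of these shifts was not tested. Depth is unknown, so levels under 1 FPKM have no stated precision.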
